A study of Mus musculus with 2 samples.

Results

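Genes of the tumour necrosis factor (TNF) superfamily were read in mouse liver RNA after injection of adenovirus. Members were all genes with a symbol starting with Tnfsf (ligands) or Tnfrsf (receptors), together with Lta, Ltb, Ltbr, Fas, Fasl, Cd27, Cd70, Cd40lg and Ngfr. This rule found 40 of 20652 named genes, 16 ligands and 24 receptors, on 51 of 39401 probes and 78 of 43020 gene spots. Tnf and Cd40, which belong to the family by function but not by this rule, are given beside them.

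The livers came from male mice that had received either a control virus, Ad-Ctrl, or Ad-378, which per its label makes the animals overexpress miR-378. Virus went into the tail vein of 8-week-old animals at 1e9 plaque forming units, so the controls carried virus as well. No strain or genotype is given in the labels. Liver RNA of 5 animals was pooled for each virus and read on 1 Agilent 1-colour array, and the protocols give collection at 2 weeks while the description of the Ad-378 pool gives 3 weeks. A single array for each virus allows no replicate check and no test, so every difference below describes these arrays only. All 9 hepatocyte markers found on the array, among them Alb and Ttr, were well above background in both pools.

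TNF family ligands are mostly trimeric membrane proteins, some of them released by proteases, and they act by clustering receptors on the next cell. Receptors with a death domain can recruit caspases, and many of the others bind TRAF adaptors and activate NF-kB and stress kinases. In the liver, TNF and its receptors are known for their part in inflammation, hepatocyte death and the start of regeneration, and many costimulatory ligands and receptors belong to lymphocytes and myeloid cells.

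Receptors were measured far more often than ligands. A gene was counted as measured where a probe was marked by the scanner software as well above background on both arrays. This held for 21 of 24 receptors (87.5%) and 6 of 16 ligands (37.5%), against 69.2% of all named genes. In Ad-378 alone, 4 further members were above background, the ligands Tnfsf9 and Tnfsf15 and the receptors Tnfrsf8 and Tnfrsf13c, and in Ad-Ctrl alone there were 0. Over all genes above background on at least 1 array, 4.7% were so in Ad-378 only and 2.2% in Ad-Ctrl only. The other 9 members, namely Cd40lg, Cd70, Lta, Tnfrsf17, Tnfsf4, Tnfsf8, Tnfsf11, Tnfsf14 and Tnfsf18, were not well above background in either pool. Their signals ran from 3.12 to 16.8 in Ad-Ctrl and from 2.34 to 11.4 in Ad-378, and no fold is given for them.

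**Figure D1:**
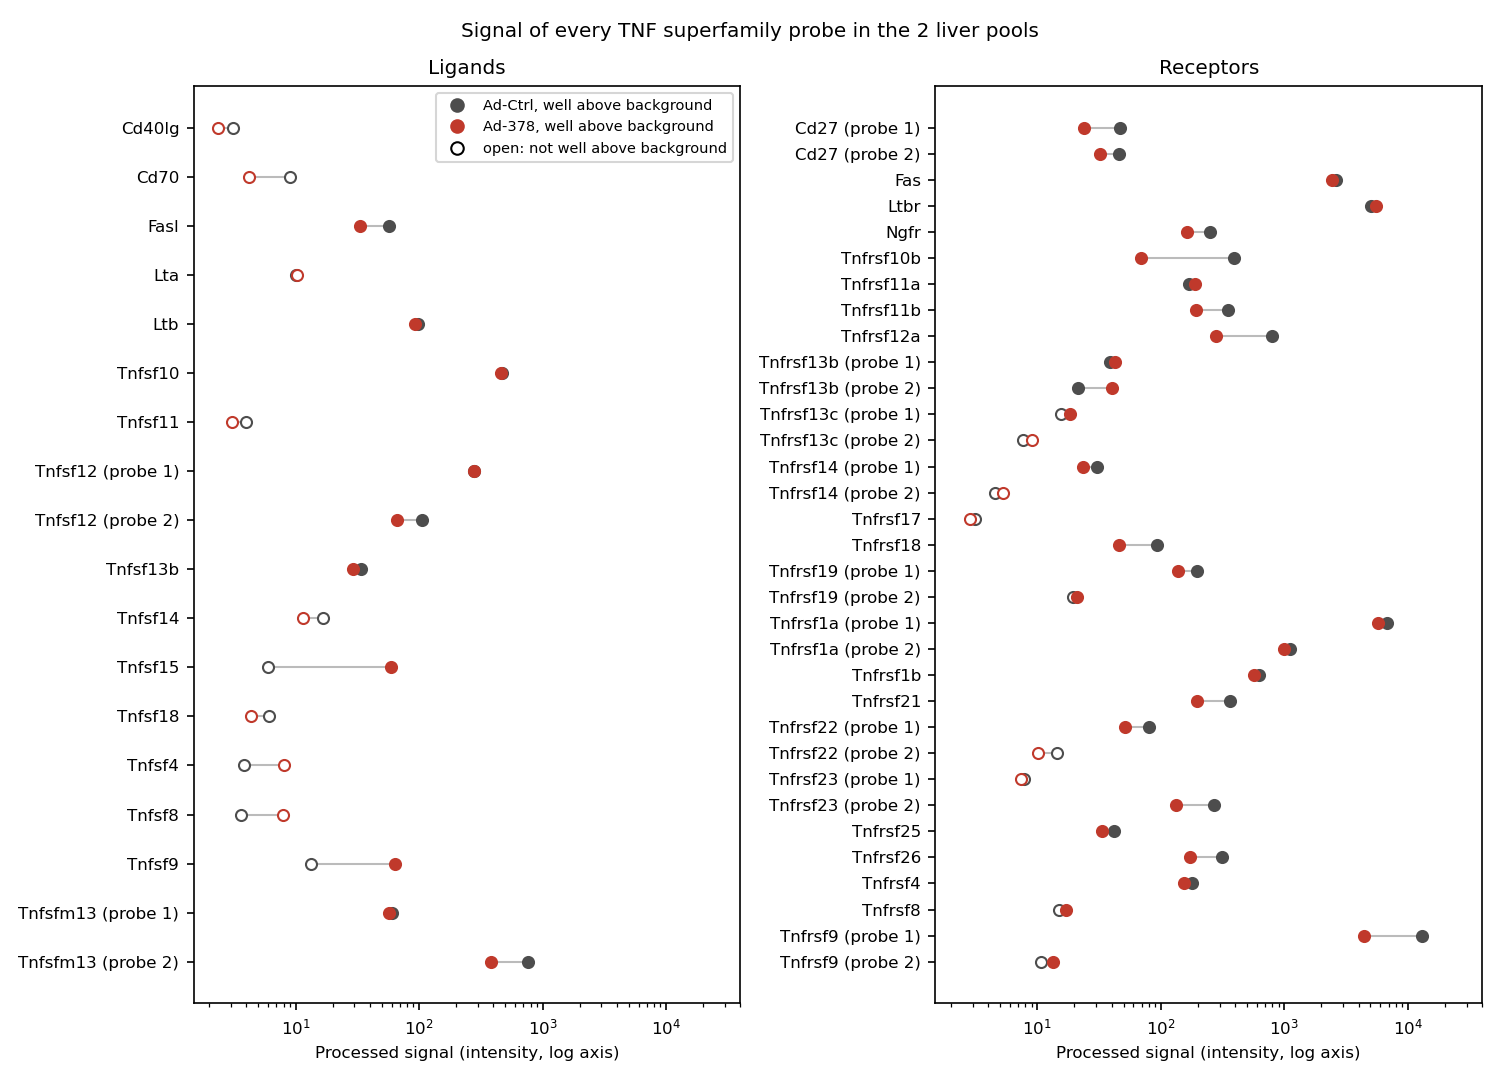
Processed signal (intensity, log axis) of each of the 51 probes of ligands and receptors in the Ad-Ctrl pool (grey) and the Ad-378 pool (red), filled where well above background. Tnfsf9 and Tnfsf15 are open in Ad-Ctrl and filled in Ad-378, and most receptor probes are filled in both; signals of different probes are not comparable with each other.

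No member was 2-fold higher among the 27 measured in both pools, and 3 receptors were at least 2-fold lower in Ad-378. Those were Tnfrsf10b, Tnfrsf12a and Tnfrsf9. Over the 14288 genes measured in both pools, 2.83% were higher by 2-fold or more and 4.51% lower, so 3 of 27 (11.1%) stands against 4.51%. Differences are log2 values, Ad-378 minus Ad-Ctrl, of the processed signal after scaling each array to its 75th percentile (800 in Ad-Ctrl and 695 in Ad-378). The median over the 27 members was -0.31, against 0.040 over all genes, and 18 of 27 (66.7%) lay below 0, against 46.1% of all genes. The member median was -0.087 on values without background subtraction, against 0.046 over all genes.

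The error of a signal or difference is the scanner error, the error the scanner software gives for a spot. It covers measurement on the array and not the spread between mice. Of the 27 members, 12 lay more than 1.96 scanner errors below 0 and 0 as far above, against 17.3% and 15.9% of all genes. Receptors had a median of -0.32 with 15 of 21 below 0, and ligands a median of 0.050 with 3 of 6 below 0. The ligand figure rests on 6 genes.

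**Figure D2:**
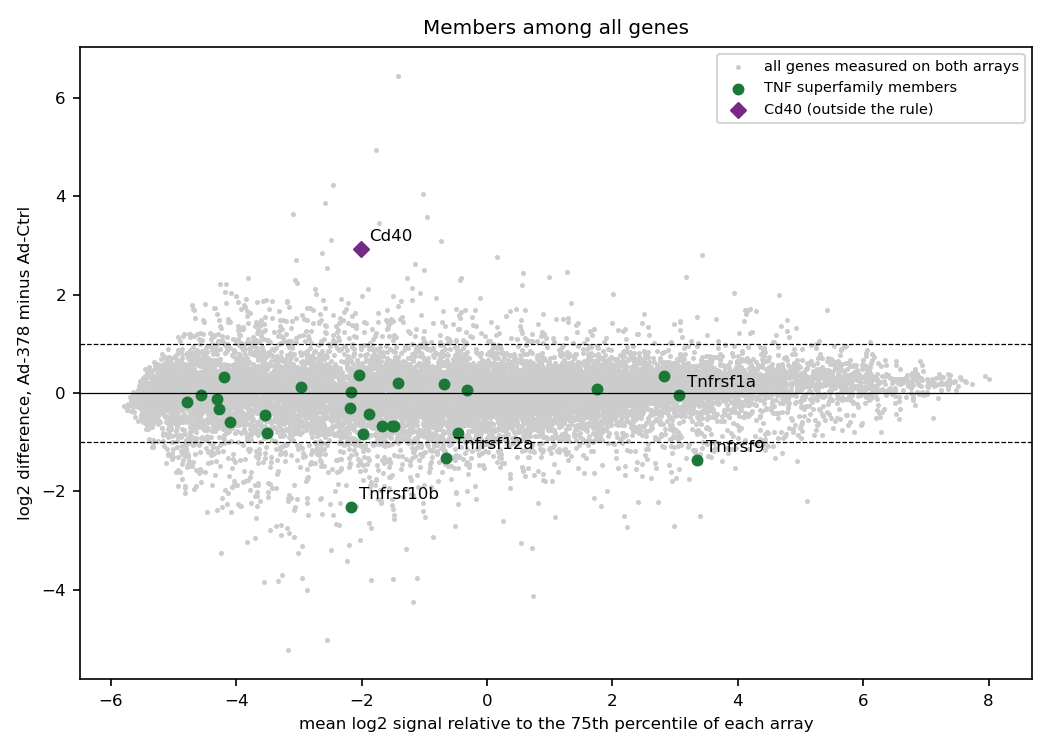
Difference (log2, Ad-378 minus Ad-Ctrl) against mean log2 signal relative to each array's 75th percentile for 14288 genes (grey), with the 27 measured family genes in green and Cd40 as a diamond; dashed lines mark 2-fold. The green points reach from -2.32 (Tnfrsf10b) to 0.36 (Tnfrsf11a), while Cd40 lies at 2.92.

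Among receptors with a death domain, Tnfrsf10b stood furthest apart. It encodes the mouse death receptor for TRAIL and is known as a gene that p53 can induce. Its signal was 396 ± 39.8 (scanner error) in Ad-Ctrl and 68.7 ± 7.38 in Ad-378. That is a difference of -2.32 ± 0.21, or 5.0-fold lower, rank 58 from the lowest of 14288 genes. A single probe stands behind it, and the size fell to -1.72 on the values without background subtraction and to -1.52 after normexp correction fitted without background outliers.

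The other death domain receptors were closer between the pools. Tnfrsf21, death receptor 6, had signals of 361 ± 36.2 and 196 ± 19.7, a difference of -0.68 ± 0.21. Fas, the receptor for Fas ligand, had signals of 2626 ± 263 and 2423 ± 242, a difference of 0.087 ± 0.20. Tnfrsf25, the receptor for Tnfsf15, differed by -0.12 ± 0.26. Both of these lay within the scanner error of 0.

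Probes printed many times on each array show how far spots of a probe varied. Tnfrsf1a, TNF receptor 1, is the main signalling receptor for TNF in hepatocytes. Its 9 usable spots of 10 ran from 6408 to 7035 (median 6834) in Ad-Ctrl and from 5485 to 5874 (median 5711) in Ad-378. The unscaled signals did not overlap, but after scaling the gene differed by -0.048 ± 0.20, and its other probe by 0.017. Ngfr, the low-affinity receptor for nerve growth factor, had 10 spots from 223 to 276 (median 251) in Ad-Ctrl and from 129 to 208 (median 155) in Ad-378. These did not overlap either, and after scaling 10 of 10 spot differences were below 0, from -0.75 to -0.17, with a gene difference of -0.43 ± 0.21. Spots on an array share the RNA pool, so they are not replicates of the condition.

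**Figure D3:**
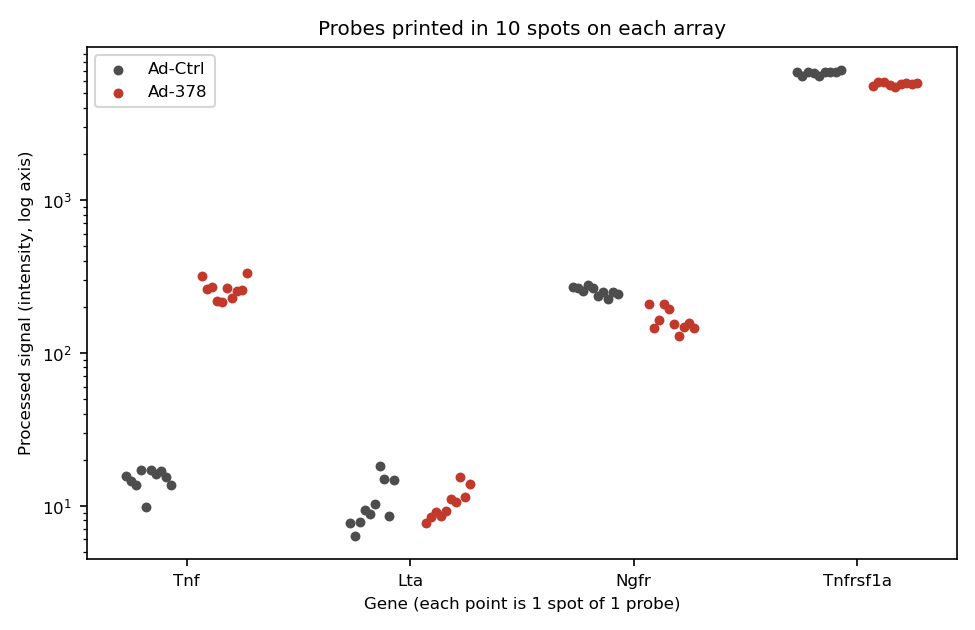
Processed signal (intensity, log axis) of each usable spot of the probes printed in 10 spots, for Tnf, Lta, Ngfr and Tnfrsf1a, in Ad-Ctrl (grey) and Ad-378 (red). Tnf spots lie at 9.81 to 17.2 in Ad-Ctrl and 216 to 330 in Ad-378, Lta spots overlap near background, and Ngfr and Tnfrsf1a spots lie lower in Ad-378 before scaling.

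Tnfrsf12a, the TWEAK receptor Fn14, binds TRAF adaptors and is known to be induced in injured and regenerating liver. Its signal was 798 ± 79.9 in Ad-Ctrl and 278 ± 27.9 in Ad-378, a difference of -1.32 ± 0.20 (2.49-fold lower). The difference stayed between -1.36 and -1.12 under every alternative run. Its ligand gene Tnfsf12, which encodes TWEAK, had signals of 277 ± 28 and 279 ± 28 at its brighter probe, a difference of 0.21 ± 0.21. A second Tnfsf12 probe differed by -0.47 ± 0.22, so the ligand gene had no single direction.

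Tnfrsf9, the costimulatory receptor 4-1BB of activated T cells, had a single probe above background in both pools. That probe read 13135 ± 1313 in Ad-Ctrl and 4421 ± 442 in Ad-378, a difference of -1.37 ± 0.20 (2.58-fold lower). The other probe read 10.8 ± 3.73 in Ad-Ctrl, where it was not well above background, and 13.4 ± 2.91 in Ad-378, so it gives no direction. What the bright probe measures was not tested. Without Tnfrsf9, 2 of 26 measured members were at least 2-fold lower.

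Tnfsf9, the ligand of 4-1BB, was above background in Ad-378 only. It read 13.2 ± 3.66 in Ad-Ctrl and 63.8 ± 6.88 in Ad-378. It was at least 4.83-fold higher, the bound being set against the higher of the dimmest probe signal marked above background and the probe's own signal in Ad-Ctrl. Tnfsf15, or TL1A, a ligand that costimulates T cells through Tnfrsf25, had signals of 5.98 ± 3.45 and 59.8 ± 6.5 and was at least 4.53-fold higher. Of the 722 genes above background in Ad-378 only, 14.7% had a bound of 2-fold or more (37.6% of the 338 in Ad-Ctrl only), and these ligands ranked 13 and 16 by bound. Neither kept a bound above 1-fold after normexp correction fitted on all spots. Fitted without background outliers, normexp gave bounds of 1.76-fold for Tnfsf9 and 2.13-fold for Tnfsf15. On the values without background subtraction the bounds were 1.88-fold for Tnfsf9 and 2.25-fold for Tnfsf15.

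The receptors above background in Ad-378 only had small bounds. Tnfrsf13c, the BAFF receptor of B cells, was at least 1.36-fold higher and Tnfrsf8, or CD30, at least 1.29-fold higher. After normexp fitted on all spots neither kept a bound above 1-fold, and on the values without background subtraction the bounds were 1.17-fold and 1.12-fold. After normexp fitted without background outliers they were 1.13-fold and 1.16-fold. Both signals in Ad-378, 18.5 ± 3.49 and 17.1 ± 3.03, were near the dimmest probe signal marked above background, 11.3 there and 15.2 in Ad-Ctrl.

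Tnf itself had the widest gap. Its 10 spots ran from 9.81 to 17.2 (median 15.5) in Ad-Ctrl, with 3 of them marked above background, and from 216 to 330 (median 259) in Ad-378, with 10 marked. The spots did not overlap, and the gene was at least 19.6-fold higher. The bound was 5.49-fold without background subtraction. It was 1.78-fold after normexp fitted on all spots and 4.66-fold after normexp fitted without background outliers. Its receptors Tnfrsf1a (-0.048) and Tnfrsf1b (0.066 ± 0.20), the second TNF receptor, found mainly on leukocytes and endothelium, differed by less than the scanner error. Lta, lymphotoxin alpha, is a neighbour of Tnf that uses the same receptors and was also printed in 10 spots. These ran from 6.34 to 18.1 in Ad-Ctrl and 7.64 to 15.5 in Ad-378, overlapping, with 1 spot above background on each array.

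Cd40, the receptor that activates macrophages and B cells, read 72.2 ± 7.90 in Ad-Ctrl and reached 475 ± 47.5 in Ad-378. Its difference was 2.92 ± 0.21 (7.57-fold higher), while its ligand gene Cd40lg was not above background in either pool. Among the other relatives outside the rule, the TNF receptor-like genes Rell1 and Rell2 differed by -0.65 ± 0.20 and -0.74 ± 0.22. The ectodysplasin gene Eda and the adaptor gene Edaradd differed by 0.012 and 0.024, and Edar, Eda2r and Relt were not above background in either pool.

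The 4 genes listed as soluble or decoy receptors were all lower in Ad-378, each by less than 2-fold. Tnfrsf11b encodes osteoprotegerin, a secreted receptor that binds RANKL and TRAIL. It had signals of 354 ± 35.6 and 194 ± 19.7, a difference of -0.66 ± 0.21. Tnfrsf22 (-0.44 ± 0.22), Tnfrsf23 (-0.83 ± 0.21) and Tnfrsf26 (-0.66 ± 0.21) are related mouse genes without a death domain, and the first pair are known as TRAIL decoys. The Tnfrsf22 difference was -0.17 on the values without background subtraction and -0.12 after normexp fitted without background outliers. Cross-reaction of probes between such related genes was not tested. Tnfrsf23 had a second probe that was not above background in either pool, as did Tnfrsf22.

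Of the 6 costimulatory receptors of lymphocytes, 5 were measured in both pools, and Tnfrsf8 was above background in Ad-378 only. Of the 5, 4 lay below 0 and the median was -0.32. That median was -0.041 on the values without background subtraction and -0.044 after normexp fitted without background outliers, with 3 of 5 below 0 in each. Cd27 was the middle gene each time. Tnfrsf18, or GITR, had signals of 93.1 ± 9.80 and 46.2 ± 5.17, a difference of -0.81 ± 0.22, which was -0.29 after normexp correction fitted without background outliers. Cd27, the CD70 receptor, differed by -0.32 ± 0.25 at the probe used and -0.78 ± 0.31 at the other. Tnfrsf14, the receptor for LIGHT, differed by -0.18 ± 0.33 and Tnfrsf4, or OX40, by 0.012 ± 0.21, both within the scanner error. Fasl, the death ligand of cytotoxic lymphocytes, had signals of 56.9 ± 6.95 and 33.0 ± 4.55. Its difference of -0.58 ± 0.27 was -0.085 after the same normexp correction.

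Ltbr, Ltb, Tnfrsf11a and Tnfrsf19 each lay within 1.96 scanner errors of 0. Ltbr, the lymphotoxin beta receptor of parenchymal and stromal cells, had signals of 5029 ± 503 and 5559 ± 556, a difference of 0.35 ± 0.20, and its ligand gene Ltb differed by 0.13 ± 0.21. Tnfrsf11a, the receptor RANK, differed by 0.36 ± 0.21, while its ligand gene Tnfsf11 was not above background and Tnfrsf11b, which also binds RANKL, was lower as given above. Tnfrsf19, or TROY, differed by -0.31 ± 0.21. Its second probe read 19.4 ± 4.36 in Ad-Ctrl, where it was not well above background, and 21.1 ± 3.58 in Ad-378, so it gives no direction.

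Ligands that were measured in both pools differed little, apart from Fasl and the readthrough gene. Tnfsf10, the death ligand TRAIL, had signals of 467 ± 46.8 and 459 ± 45.9, a difference of 0.18 ± 0.20. Tnfsf13b, the B cell survival factor BAFF, differed by -0.031 ± 0.27. Tnfsfm13 is the RefSeq symbol of a readthrough transcript that joins Tnfsf12 to Tnfsf13, so its probes can share sequence with either gene. Its brighter probe had signals of 769 ± 77.0 and 381 ± 38.2, a difference of -0.81 ± 0.20. The other had 60.9 ± 6.87 and 56.9 ± 6.14, a difference of 0.10 ± 0.23. No probe used here carried an identifier of Tnfsf13 alone.

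Of the 3 receptors for B cell survival ligands, Tnfrsf13b was measured in both pools, Tnfrsf13c in Ad-378 only and Tnfrsf17 in neither. Tnfrsf13b, or TACI, differed by 0.32 ± 0.25 at its brighter probe, with signals of 39.2 ± 5.12 and 42.5 ± 4.95. Its other probe had 21.3 ± 3.89 and 40.5 ± 4.76, a difference of 1.13 ± 0.31, so both were above 0. The gene turned to -0.78 after normexp fitted on all spots and was 0.23 after normexp fitted without background outliers. In all, 11 members had more than 1 probe, 5 of them with 2 probes above background in both pools, and in 3 of those 5 (Tnfrsf1a, Tnfsf12 and Tnfsfm13) the probes had opposite signs.

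**Figure D4:**
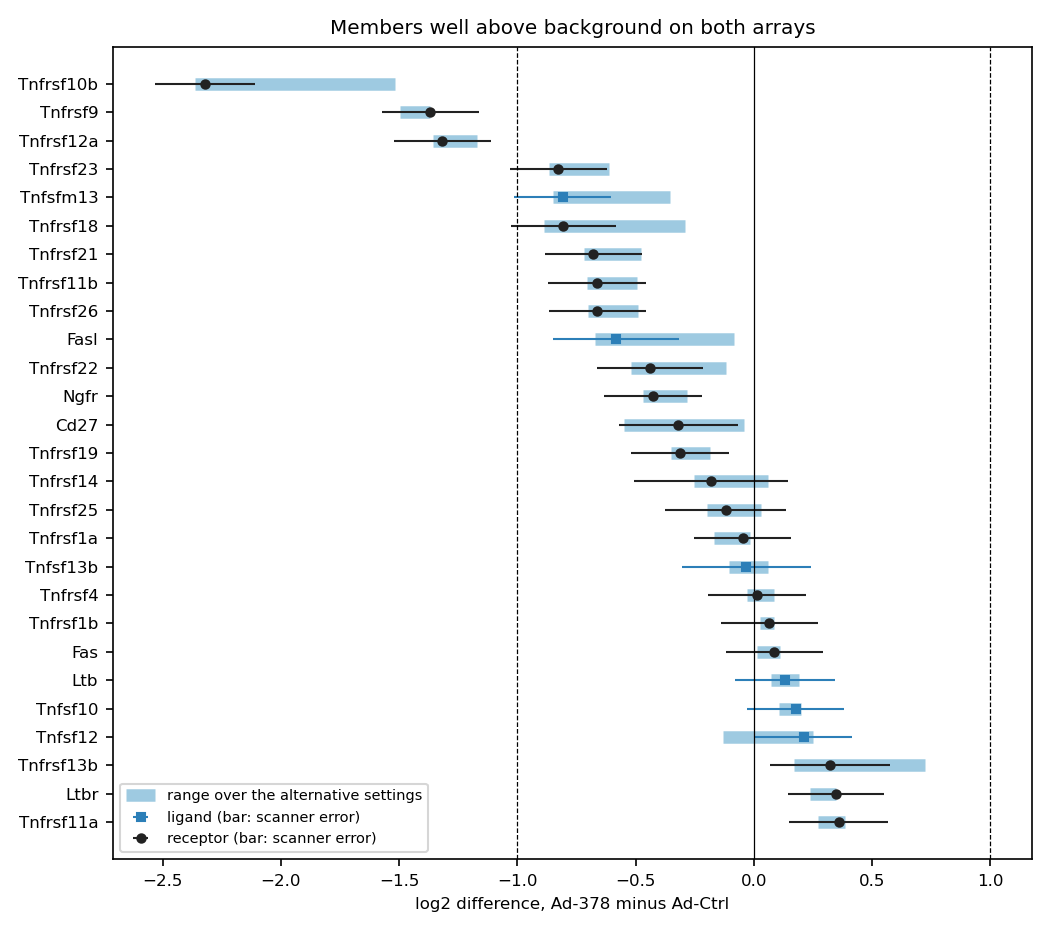
Difference (log2, Ad-378 minus Ad-Ctrl) of the 27 family genes measured in both pools, receptors as circles and ligands as squares, with the scanner error as a bar, over the range across the alternative settings (pale band; normexp fitted on all spots is left out); dashed lines mark 2-fold. Tnfrsf10b, Tnfrsf9 and Tnfrsf12a lie beyond the lower line along their whole bands, and no gene reaches the upper line.

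Known ligands and receptors can also be set side by side. Of 28 pairs listed, 13 had both genes above background on at least 1 array. TRAIL differed by 0.18 ± 0.20, within its error, and its receptor Tnfrsf10b by -2.32. TWEAK differed by 0.21 and -0.47 at its probes, and Tnfrsf12a by -1.32. Tnfsf9 and Tnfsf15 were above background in Ad-378 only, while Tnfrsf9 read -1.37 at its bright probe and Tnfrsf25 -0.12. No test of a difference between genes was possible.

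Promoter sequence of members was examined for a loose NF-kB-like motif, because NF-kB is the factor that the family is best known for activating. The motif was GGG, any 5 bases and CC, on either strand, in the 250 bases before the annotated start, from RefSeq on build GRCm38.p6. It was present at 21 of 35 starts (60.0%) of the 31 members in the table, against 45.8% of 32851 starts of all genes. A stricter form, GGGA, any base and TTTCC, every match of which is also a match of the loose motif, was at 1 of the 35 starts, that of Ltb, against 0.356% of all starts. A match is a description of letters and not a site. The windows below show a receptor lower in Ad-378, a ligand above background in Ad-378 only, and the gene with the stricter motif. They lie at chr17:23677450-23677699 (minus strand), chr4:63745060-63745309 (minus strand) and chr17:35194257-35194506 (plus strand). Capitals mark matches to the loose motif, of which there are 2 in Tnfrsf12a, 0 in Tnfsf15 and 4 in Ltb, where 3 overlap.
Tnfrsf12a: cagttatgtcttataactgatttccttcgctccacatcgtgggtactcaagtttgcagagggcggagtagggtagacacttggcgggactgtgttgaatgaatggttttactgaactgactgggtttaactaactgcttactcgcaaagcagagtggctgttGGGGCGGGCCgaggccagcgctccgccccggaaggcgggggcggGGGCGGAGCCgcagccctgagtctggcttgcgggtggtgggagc
Tnfsf15: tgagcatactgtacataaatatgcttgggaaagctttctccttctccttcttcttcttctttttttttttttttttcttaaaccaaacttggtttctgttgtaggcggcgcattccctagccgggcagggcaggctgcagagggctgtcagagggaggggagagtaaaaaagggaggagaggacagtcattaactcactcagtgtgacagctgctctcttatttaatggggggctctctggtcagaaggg
Ltb: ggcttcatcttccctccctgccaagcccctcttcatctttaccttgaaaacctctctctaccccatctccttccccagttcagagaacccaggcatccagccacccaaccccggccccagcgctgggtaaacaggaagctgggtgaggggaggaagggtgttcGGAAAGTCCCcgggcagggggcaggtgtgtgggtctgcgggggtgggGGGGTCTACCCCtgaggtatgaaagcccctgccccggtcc
Of the genes shown, Tnfrsf12a differed by -1.32, Tnfsf15 had a bound of 4.53-fold and Ltb differed by 0.13. A relation between these letters and the differences was not tested.

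Adaptors and kinases that act below the receptors had medians near that of all genes, 0.040. Of 24 TRAF and death domain adaptor genes, all measured in both pools, 1 was higher by 2-fold or more and 1 was lower (4.17% each, against 2.83% and 4.51% of all genes), and the median was 0.020. Traf1, an adaptor that NF-kB is known to induce, differed by 1.64 ± 0.21, and Traip, a ubiquitin ligase of DNA replication named for TRAF binding, by -1.61 ± 0.37. The necroptosis genes Ripk3 and Mlkl differed by -0.85 ± 0.21 and -0.85 ± 0.20. Of 15 measured NF-kB kinases and ubiquitin factors, 0 were 2-fold apart and the median was 0.034, with Otulin (0.64), Tab1 (0.46), Ube2v1 (0.34) and Map3k14 (-0.31) furthest from 0.

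The list of shedding and processing genes had a median of -0.29 over 7 genes, of which 0 were 2-fold apart. Adam17, the protease that releases TNF, differed by 0.41 ± 0.20, whereas Timp3 (-0.41), which inhibits Adam17, and Adam10 (-0.31) were lower. Spn (-0.97) was lower as well and is counted in the list median. It encodes sialophorin, a leukocyte surface protein, and not a shedding factor. Genes induced by TNF had a median of 0.091 over 23 measured genes, of which 4 (17.4%) were higher by 2-fold or more and 1 (4.35%) was lower, against 2.83% and 4.51% of all genes. Il6 (4.24 ± 0.25), Ccl2 (1.37 ± 0.20), Nfkbie (1.13 ± 0.21) and Ccl7 (1.04 ± 0.21) were higher, and the adhesion receptor gene Vcam1 was lower (-1.74 ± 0.20). Cxcl2, above background in Ad-378 only, was at least 4.90-fold higher, and Ccl20, above background in Ad-Ctrl only, at least 1.26-fold lower. Of the 23 genes, 8 lay below 0. The feedback genes Nfkbia (0.033 ± 0.20) and Tnfaip3 (-0.019 ± 0.20) lay within the scanner error of 0.

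Markers of the cells that carry many of these receptors and ligands differed as well, and their part in the values above was not tested. In bulk liver, fewer cells of a type and less RNA per cell cannot be told apart. Kupffer cell and macrophage markers were below 0 in 8 of 9 cases (median -0.88), all but Itgam (0.89 ± 0.20). Their summed signal in units of the array's 75th percentile was 100 in Ad-Ctrl and 53.1 in Ad-378. Stellate cell and fibroblast markers were below 0 in 9 of 9 (median -1.06; sums 78.5 and 39.6), and only Des was not above background in either pool. T and NK cell markers were below 0 in 9 of 13 (median -0.41; sums 13.4 and 13.1), with Klrb1c not above background in Ad-Ctrl and Ncr1 not in Ad-378.

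B and plasma cell markers were above 0 in 7 of 8 (median 0.46; sums 25.9 and 37.1), with Cd79a and Blk not above background in either pool. Cholangiocyte markers were above 0 in 6 of 7 (median 0.56; sums 3.81 and 8.54), all but Krt19 (-0.36 ± 0.25), and Krt7 was not above background. Neutrophil, dendritic cell and sinusoidal endothelial markers differed less by median. Neutrophil markers had a median of -0.22 with 4 of 7 below 0 (sums 12.8 and 14.5), and dendritic cell markers -0.17 with 5 of 7 (sums 15.1 and 19.9). Sinusoidal endothelial markers had a median of -0.23 with 9 of 10 below 0 (sums 61.8 and 51.5). Among neutrophil markers Mpo (-1.26 ± 0.35), and among dendritic markers Itgax (-1.95 ± 0.21), were more than 2-fold lower. No marker of these lists was 2-fold higher. Cxcr2 was not above background in either pool, Ngp not in Ad-Ctrl, and Xcr1 in neither. Hepatocyte markers had a median of 0.14 over 9 genes. That median was -0.049 after quantile and -0.078 after loess normalization, so its sign depends on the scaling. The B cell and cholangiocyte medians turned to -0.35 and -0.44 after normexp fitted on all spots. They were 0.31 and 0.42 after normexp fitted without background outliers. The other marker medians kept their sign under the alternatives run.

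**Figure D5:**
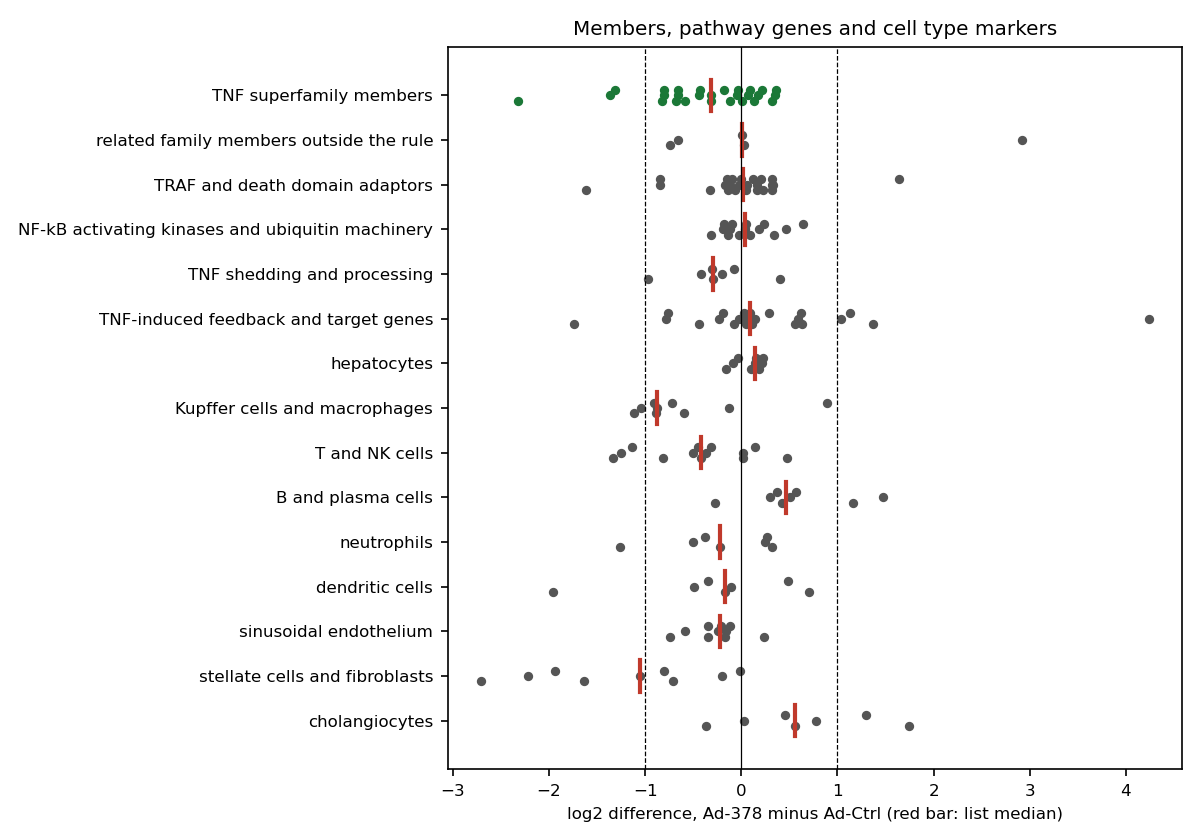
Difference (log2, Ad-378 minus Ad-Ctrl) of each measured gene of the family, of 5 lists of related and pathway genes and of 9 lists of cell type markers, with the list median as a red bar; dashed lines mark 2-fold. The family median lies at -0.31, the macrophage and stellate medians at -0.88 and -1.06, and the adaptor, kinase and TNF-induced lists near 0.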

How the data were processed

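Liver RNA of 2 pools was labelled from 0.5 micrograms per the labels' protocols, which describe a kit for blood RNA. The deposited signals are linear intensity values. Per the file headers (Agilent Feature Extraction 11.0.1.1; 9.1 per the submitters' processing notes) the processed signal had been background-subtracted within each array, with no scaling between arrays. Per the file headers other columns hold flags of 0 or 1. The deposited series matrix holds the raw median signal (100% of values equal).

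Control spots and outlier spots (123 per array) were left out, spots of a probe were averaged on the log2 scale, and 27219 of 39401 probes were named by RefSeq identifiers of GRCm38.p6. A gene took its brightest probe above background on both arrays. The members and lists were chosen with earlier results of these data known. Every member is named. Signals are given for those 2-fold apart, above background in 1 pool, brightest, or with probes of opposite sign. Differences are given for up to 4 genes of each pathway list by size. Further genes of the related and TNF-induced lists are named beyond these. Signals of further members were added after their values were seen. No test was run. Alternatives were quantile and loess normalization (span 0.3), another percentile set, the mean over probes, the matrix values, normexp (limma 3.58.1, offset 50), no filter, and 1.5-fold and 3-fold thresholds. The number of arrays limits the precision. Steps were tested on simulated data.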

Additional observations from a re-analysis of the deposited data

How the results depend on the processing

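No paired analysis was possible because 1 replicate stands for each virus. The members 2-fold lower numbered 3 under each scaling and with the matrix values, and 5 after normexp fitted on all spots. At 1.5-fold there were 9 lower, and at 3-fold 1. The members 2-fold higher numbered 0, except 4 once dim probes were let in by dropping the background filter. Shares of all genes were not taken under these alternatives, so these counts have no reference. The member median was -0.087 on the matrix values, -0.77 after normexp on all spots and -0.085 after normexp fitted without spots of outlying local background, an alternative chosen after seeing the data. On all spots 1 spot of the Ad-Ctrl array, with a local background of 6305 (array median 29.5), took part in the fit. The fit without background outliers left out 193 spots in Ad-Ctrl and 354 in Ad-378. Its mean went from -175 to 4.41 in Ad-Ctrl and from -10.6 to 3.76 in Ad-378. The related genes outside the rule had a median of -0.43 with all spots and 0.055 without background outliers. Members with a bound of 2-fold or more in Ad-378 only numbered 2, against 1 on the matrix values, 0 after normexp on all spots and 1 without background outliers. Apart from the filter, the cause of these changes was not tested. Of 216 member differences under alternatives, 204 lay within 1.96 scanner errors of the main value and 12 did not. Dropping the filter left all 27 values as they were. Averaging probes could change only the 5 members with 2 probes above background in both pools. The 204 is therefore no measure of robustness. Of the members 2-fold apart, 0 changed sign. Members with signals near background are limited by the array's background.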
